A study of Mus musculus with 18 samples.

Results

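Neighbouring genes on 4 stretches of chromosomes 1 and 8 were compared between 10 tumours labelled EV and 8 tumours labelled p95HER2. The tumours grew in mice from PB2, a mouse breast cancer cell line. Every mouse in both groups received the doxycycline diet DOX625. p95HER2 is HER2, a growth factor receptor, without most of its extracellular part, and the labels do not spell out EV. The sources used here do not give the host strain, the age, the promoter of the transgene or the number of clones. Both the tumour cells and the host are mouse, so RNA of host cells was counted with that of the tumour cells, and fewer cells of a type cannot be told apart from less RNA per cell. The groups differed in more than genotype: library totals ran from 35030920 to 38464541 counts in EV and from 32686558 to 34804640 in p95HER2 tumours, and the numbers in the tumour tags were also separate. Whatever else went with depth or tag is confounded with genotype.

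The members are all genes with a mean of at least 2 CPM (read counts scaled by library size) over the 18 tumours and a start in 30 to 40, 70 to 90 or 150 to 160 Mb of chromosome 1 (the first, the second and the third stretch) or in 0 to 30 Mb of chromosome 8, on mouse genome build mm10. There were 319 of them among 13023 genes with that mean, and 293 of the 319 are protein-coding. The stretches hold 50, 102 and 48 members on chromosome 1 and 119 on chromosome 8. The stretches were selected on the measured log2 differences between EV and p95HER2 tumours, so every difference between the groups given here describes that choice and is not a test of it.

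Genes that lie next to each other on a chromosome share the copy number of their DNA, and often the chromatin domain and replication time of the segment. In tumour cell lines whole segments can be gained or lost, which changes the dose of every gene on them, while a transcription factor acts on genes scattered over the genome. DNA and chromatin were not measured here. The chromosome 8 stretch carries orthologues of human genes of 8p11-p12, a segment known to be amplified in some breast cancers (Fgfr1, Zfp703, Nsd3, Eif4ebp1), and of 13q33-q34 (Cul4a, Tfdp1, Gas6, Irs2). The chromosome 1 stretches carry genes for fibronectin, insulin-like growth factor binding proteins and laminin.

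To show what lies before the start of members at the head of each stretch, the 250 bases upstream of the RefSeq start (build GRCm38.p6, the same assembly as mm10) are printed for the called member of at least 10 CPM with the largest difference in the direction of its stretch, among those matched in the table of promoters. Capitals mark the GC box GGGCGG and the CCAAT box, each on either strand. These are Hs6st1 of the first stretch (chr1:36068150-36068399, plus strand), Igfbp2 of the second (chr1:72824230-72824479, plus strand), Rgl1 of the third (chr1:152766306-152766555, minus strand) and Gas6 of chromosome 8 (chr8:13494536-13494785, minus strand).
Hs6st1: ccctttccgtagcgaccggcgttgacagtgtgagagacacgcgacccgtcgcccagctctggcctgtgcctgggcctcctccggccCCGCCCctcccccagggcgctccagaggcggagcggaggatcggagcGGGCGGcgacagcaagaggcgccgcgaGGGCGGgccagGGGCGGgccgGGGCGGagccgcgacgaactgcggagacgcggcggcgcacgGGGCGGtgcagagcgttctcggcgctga
Igfbp2: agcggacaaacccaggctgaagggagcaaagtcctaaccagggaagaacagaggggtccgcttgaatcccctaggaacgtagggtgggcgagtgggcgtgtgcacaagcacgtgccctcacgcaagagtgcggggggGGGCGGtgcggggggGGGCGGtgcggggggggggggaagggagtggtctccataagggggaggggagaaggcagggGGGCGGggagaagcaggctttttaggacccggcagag
Rgl1: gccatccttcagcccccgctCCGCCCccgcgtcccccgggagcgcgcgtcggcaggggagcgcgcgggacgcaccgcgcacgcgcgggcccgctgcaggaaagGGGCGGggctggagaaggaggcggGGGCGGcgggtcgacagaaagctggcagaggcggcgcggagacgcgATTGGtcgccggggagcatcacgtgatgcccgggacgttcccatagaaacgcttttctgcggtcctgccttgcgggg
Gas6: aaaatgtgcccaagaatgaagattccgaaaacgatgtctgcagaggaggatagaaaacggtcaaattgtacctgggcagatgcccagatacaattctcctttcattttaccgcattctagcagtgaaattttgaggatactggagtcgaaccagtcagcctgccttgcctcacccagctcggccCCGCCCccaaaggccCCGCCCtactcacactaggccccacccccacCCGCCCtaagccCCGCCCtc
The Hs6st1 window held 6 GC boxes and 37 CpG pairs, that of Rgl1 3 GC boxes, 1 CCAAT box and 37 CpG pairs, that of Igfbp2 3 GC boxes and 14 CpG pairs, and that of Gas6 4 GC boxes and 10 CpG pairs. A GC box stood in 60.4% and a CCAAT box in 36.3% of 9906 such windows of genes with at least 2 CPM. Shares over the members were not compared with these, because only 220 of 319 (69.0%) had a window.

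Members of the chromosome 1 stretches were a little higher in p95HER2 tumours, and those of chromosome 8 a little lower. The median log2 difference, p95HER2 minus EV, was 0.085 over the 50 members of the first stretch, 0.063 over the 102 of the second and 0.085 over the 48 of the third. On chromosome 8 it was -0.098 over 119 members. These correspond to changes of 6.10%, 4.43%, 6.04% and -6.56%. Over all 13023 genes the median was -0.0023. The median standard error of a single member was 0.064, 0.071, 0.072 and 0.066 on the log2 scale, larger than the shift in the second stretch and smaller in the other stretches.

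Most members of a stretch lay on the same side. In the first stretch 39 of 50 members had a positive difference, in the second 73 of 102 and in the third 36 of 48, where 49.2% of all genes did. On chromosome 8, 97 of 119 members had a negative difference, against 50.8% of all genes. The interquartile range of the members ran from 0.0097 to 0.167 in the first stretch and from -0.179 to -0.039 on chromosome 8.

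**Figure D1:**
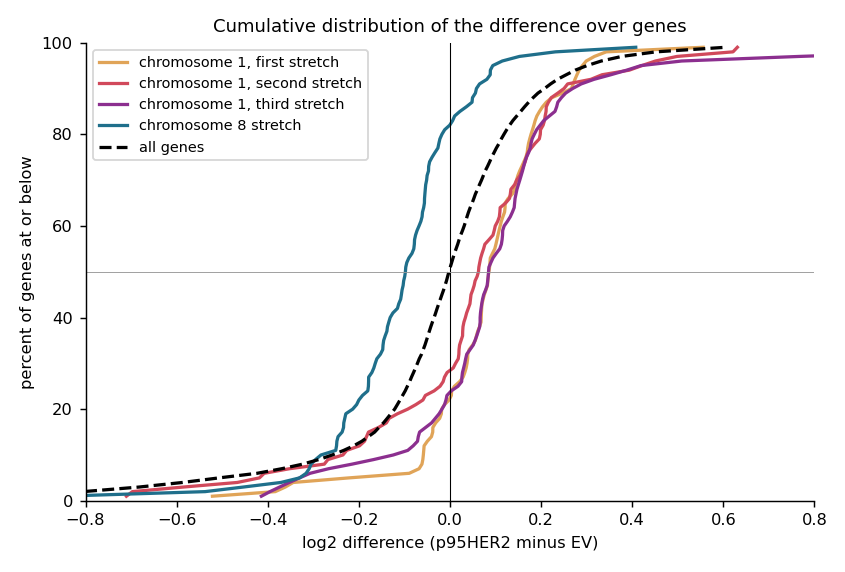
Percent of genes (vertical axis) at or below each log2 difference between p95HER2 and EV tumours (horizontal axis), for the members of each stretch and for all genes with at least 2 CPM. The curves of the 3 chromosome 1 stretches cross 50% at 0.063 to 0.085 and that of chromosome 8 at -0.098, with all genes at -0.0023.

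Single genes were called at a Benjamini-Hochberg adjusted p under 0.05 in an edgeR quasi-likelihood test over all genes. Of all genes tested 10.2% were called either way, and of those with at least 2 CPM 6.79% were called higher and 4.69% lower in p95HER2 tumours. Among members, 5 of 50 were called higher and 1 lower in the first stretch, 14 of 102 higher and 3 lower in the second, 9 of 48 higher and 1 lower in the third, and 1 of 119 higher and 16 lower on chromosome 8. As the rule used this contrast, nothing is read from these counts. Every p95HER2 tumour lay above every EV tumour for 2 members, against 0.714% of all genes, and below for 0 members, against 0.123%.

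The shift was seen tumour by tumour. The level of a stretch in a tumour was taken as the median over members of log2(CPM + 0.5) minus the mean of each gene over the EV tumours. In the first stretch the EV tumours ran from -0.060 to 0.032 and the p95HER2 tumours from 0.024 over a median of 0.081 to 0.150. The second stretch ran from -0.035 to 0.042 in EV and from 0.031 over 0.075 to 0.128 in p95HER2 tumours. In the third stretch the EV tumours ran from -0.037 to 0.059 and the p95HER2 tumours from 0.048 over 0.092 to 0.137. On each stretch of chromosome 1, 7 of 8 p95HER2 tumours lay above all EV tumours, and the eighth, p95HER2 8, lay within their range.

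The chromosome 8 level ran from -0.036 to 0.044 in EV tumours and from -0.142 over -0.088 to -0.052 in p95HER2 tumours. These ranges did not overlap, and p95HER2 8 was again the p95HER2 tumour nearest to EV. The p95HER2 tumour farthest from EV was p95HER2 1 in the first and second stretch, p95HER2 4 in the third and p95HER2 6 on chromosome 8, so the order of tumours differed between stretches. Within a group the level varied by an SD of 0.028 to 0.035 (pooled over both groups). Since the stretches were chosen for this contrast, the separation of the groups is not a measure of stability.

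**Figure D2:**
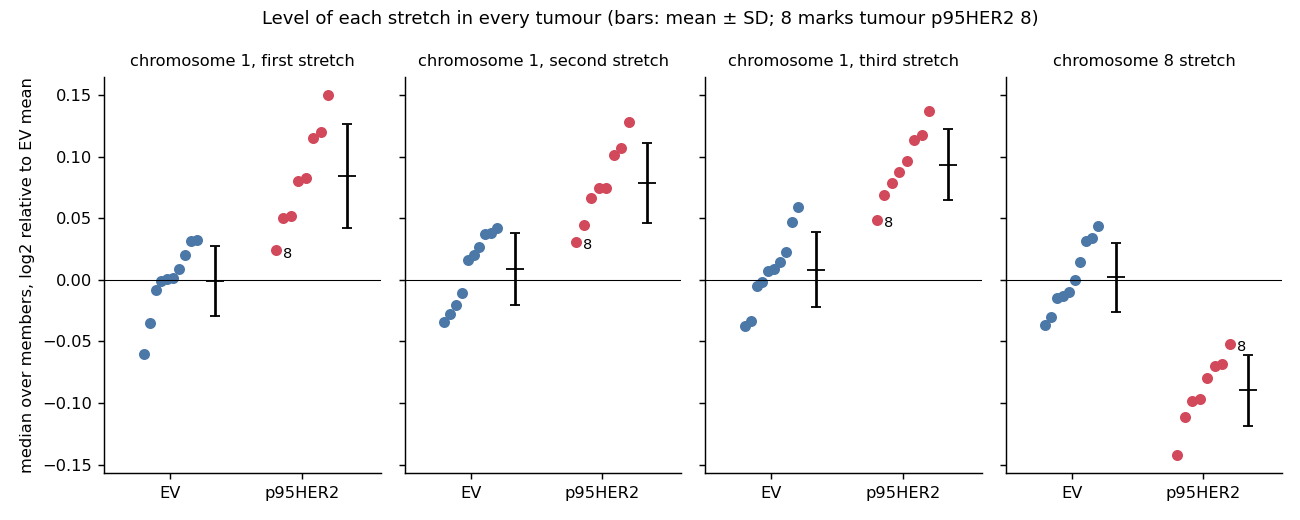
Level of each stretch (vertical axis, log2 relative to the EV mean) in the 10 EV and 8 p95HER2 tumours, 1 point per tumour, with mean ± SD beside them. Tumour p95HER2 8, marked 8, sits at 0.024, 0.031 and 0.048 on chromosome 1 and at -0.052 on chromosome 8, nearest to EV in all 4 panels.

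On chromosome 8 between 43 and 75 of 119 members lay above their EV median in the EV tumours, and between 26 and 44 in the p95HER2 tumours. In the second stretch of chromosome 1 these counts were 36 to 63 of 102 in EV and 55 to 68 in p95HER2 tumours. The ranges overlapped in both cases.

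The shifts were not confined to the stretches. Windows of 10 Mb with at least 20 genes covered chromosome 1 with 11 further windows outside the stretches, of which 10 had a positive median, up to 0.070, and 1 a negative one, at -0.0050. All 9 further windows of chromosome 8 had a negative median, from -0.074 to -0.024. The median over genes outside the stretches was 0.034 for 581 genes of chromosome 1 and -0.060 for 569 genes of chromosome 8, against -0.0014 for the other chromosomes. Of 212 windows outside the stretches over the whole genome, medians ran from -0.158 to 0.220, with 5th and 95th percentiles of -0.065 and 0.068. The window of the second stretch from 80 to 90 Mb, at 0.049, and the chromosome 8 window from 0 to 10 Mb, at -0.053, lay between these percentiles.

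**Figure D3:**
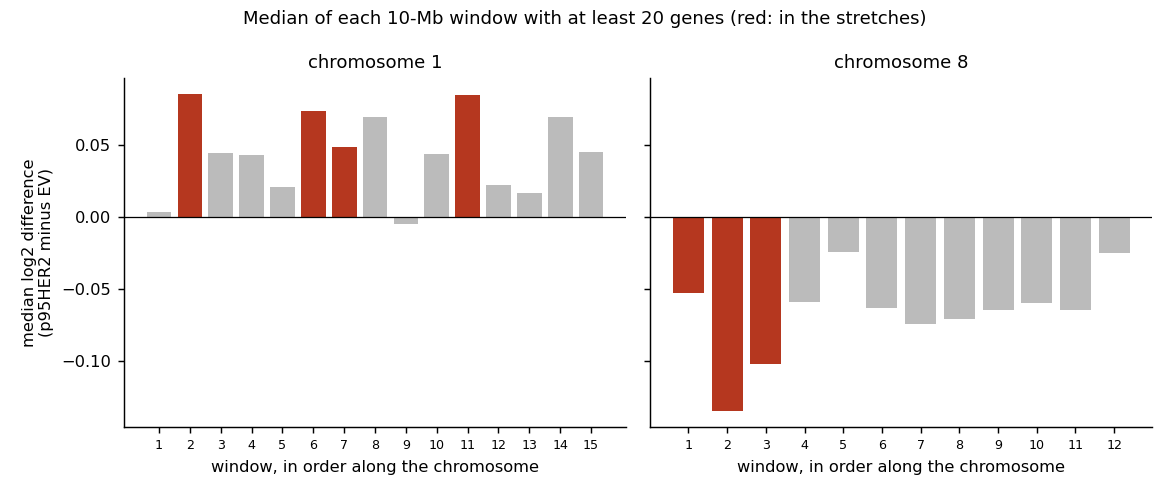
Median log2 difference (vertical axis) of each 10-Mb window with at least 20 genes on chromosomes 1 and 8, in chromosome order (horizontal axis), with windows of the stretches in red. Of the grey windows 10 of 11 on chromosome 1 are above 0 and 9 of 9 on chromosome 8 below 0.

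Within the stretches the shift was uneven. On chromosome 8 it was -0.056 over 21 members from 0 to 5 Mb and 0.017 over the 4 members from 5 to 10 Mb. It was -0.126 over 32 members from 10 to 15 Mb, -0.172 over 7 from 15 to 20 Mb and -0.164 over 29 from 20 to 25 Mb, and it was -0.079 over 26 members from 25 to 30 Mb. All 7 members between 15 and 20 Mb were negative, but only 1 of them, Mcph1, was called lower. They include the muscle gene Myom2, Rpl19-ps11 and the predicted gene Gm6483. Of the 16 members called lower, 9 lay between 10 and 15 Mb. In the second stretch of chromosome 1 the median was 0.092, 0.072, 0.067 and 0.028 in successive steps of 5 Mb from 70 Mb.

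The edges of the stretches are set by the rule and were not sharp on every side. The last 10 genes before the first stretch had a median of -0.012 and its first 10 members 0.064. This step was not general. The 17 genes from 20 to 25 Mb had a median of 0.088, with 4 called higher. That was above the 0.069 of the members from 30 to 35 Mb. Most of the last 10 genes before the first stretch are a tight run of predicted genes, from Gm28439 to Gm29216. The same run is among those 17 genes and weighs on both medians. Whether its reads come from this place was not tested. The last 10 members of the first stretch, from Eif5b to Map4k4, were at -0.0083 and the next 10 genes at 0.0084. The second stretch ended at 0.107 over its last 10 members, and the next 10 genes, from Ackr3 to Klhl30, were at 0.219. The third stretch began at 0.074 after -0.022 and ended at 0.142 before 0.013. On chromosome 8 the last 10 members were at -0.109 and the next 10 genes at -0.065. The 10 tested genes nearest under the limit of 2 CPM had medians of -0.056, 0.258 and 0.022 in the chromosome 1 stretches and -0.223 on chromosome 8. The 10 members nearest over it had 0.108, -0.151, 0.042 and -0.063, so low genes varied widely. In the first and the third stretch these sets were not close to the limit. They reached down to 0.873 and 0.540 CPM and up to 9.71 and 10.7 CPM.

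**Figure D4:**
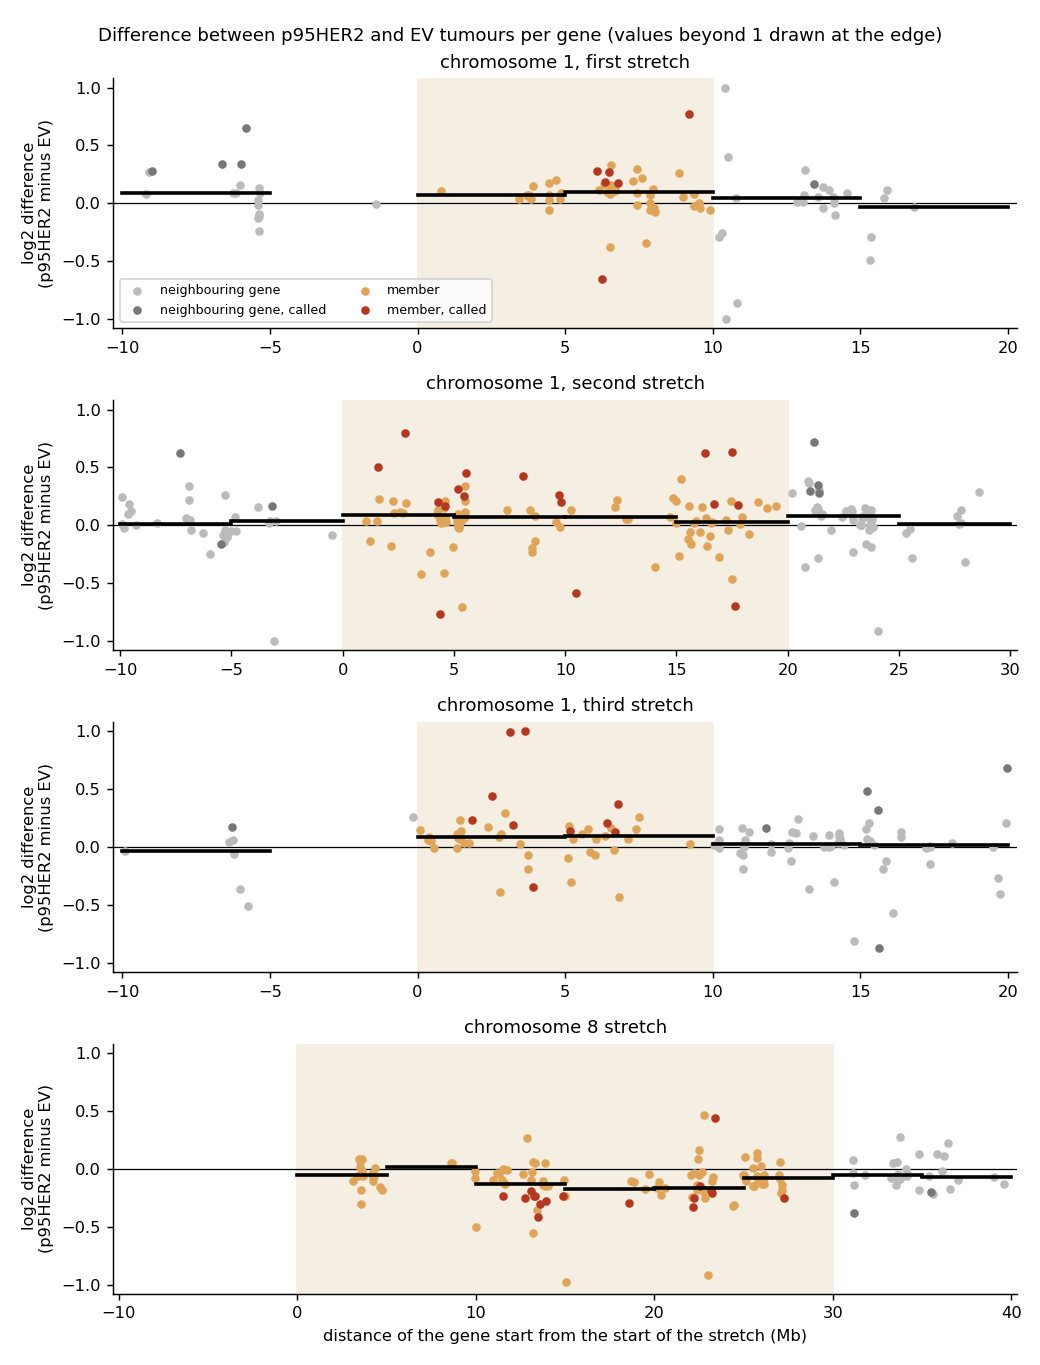
Log2 difference between p95HER2 and EV tumours (vertical axis) of each gene by the distance of its start from the start of the stretch in Mb (horizontal axis), with members on shading, neighbouring genes in grey, called genes darker, and black lines for medians of 5-Mb bins with at least 3 genes. The lowest bins of chromosome 8 are those from 10 to 25 Mb, at -0.126, -0.172 and -0.164.

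The medians were also taken by expression, in 3 classes of equal size over all genes, split at 18.4 and 58.6 CPM. In the first stretch the medians were 0.108, 0.077 and 0.106 for members of the low, middle and high class. The values of the third stretch were 0.121, 0.075 and 0.085, and on chromosome 8 -0.102, -0.084 and -0.104. The second stretch differed, with 0.013 over its 32 members of the low class against 0.068 and 0.062. Those 32 members also spread most, with an interquartile range of 0.487 against 0.104 in the high class. Low genes spread more over all genes too, with 0.316 against 0.139. The medians of all genes in the low, middle and high class were -0.028, 0.0064 and 0.0033.

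In the first stretch the 5 members that rose were Npas2, Hs6st1, Cnnm4, Kansl3 and Tmem131. Npas2, a transcription factor of the circadian clock, ran from 2.004 over a median of 3.19 to 5.34 CPM in EV tumours and from 4.38 over 6.02 to 7.56 CPM in p95HER2 tumours. It was the largest rise in the stretch, 0.77 on the log2 scale (SE 0.16), and 5 of 8 p95HER2 tumours lay above all EV tumours. Hs6st1, which adds sulfate to heparan sulfate chains, was at 97.3 ± 10.0 CPM in EV (SD, n = 10) and 118 ± 7.32 CPM in p95HER2 tumours (SD, n = 8). Kansl3, a subunit of a histone acetyltransferase complex, ran from 82.3 to 105 CPM in EV tumours and from 96.3 to 102 CPM in p95HER2 tumours. Cnnm4, a magnesium transporter gene, rose by 0.27 and Tmem131, a membrane protein gene, by 0.18 on the log2 scale. Leaving out any of 10 tumours ended the call of Tmem131.

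The member that fell was Neurl3, encoding a ubiquitin ligase, with a difference of -0.66 (SE 0.20). Its EV tumours ran from 8.74 to 27.0 CPM and its p95HER2 tumours from 5.40 to 14.6 CPM, so the groups overlapped, and any of 12 tumours ended the call when left out. Mgat4a, which branches N-glycans, had a difference of 0.30 (SE 0.10) and was not called. The most abundant members were not called: the ribosomal protein gene Rpl31 had 559 ± 53.6 CPM in EV tumours and 592 ± 50.4 CPM in p95HER2 tumours, and the kinase gene Map4k4 310 ± 22.2 and 298 ± 19.0 CPM. Among weak members without a call were Fam178b at 0.33 (SE 0.16) and Ankrd23, a muscle gene, at -0.38 (SE 0.24).

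The most abundant member by CPM lies in the second stretch. Igfbp5, which encodes a binding protein of insulin-like growth factors, ran from 5827 over 8306 to 10765 CPM in EV tumours and from 8005 over 9199 to 11994 CPM in p95HER2 tumours. The groups overlapped and it was not called, with a difference of 0.19 (SE 0.10). Per kilobase of exon it stood at 1449 CPM, below Ptma, a small nuclear acidic protein gene, at 2040 CPM per kilobase. Its neighbour Igfbp2, which encodes another such binding protein, ran from 88.9 over 222 to 294 CPM in EV tumours and from 308 over 352 to 518 CPM in p95HER2 tumours. Every p95HER2 tumour lay above every EV tumour, as for 0.714% of all genes, and the difference was 0.80 (SE 0.20).

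Matrix genes of the second stretch were among the 14 members that rose. Fn1, encoding fibronectin, was at 781 ± 191 CPM in EV tumours and 1105 ± 156 CPM in p95HER2 tumours, a difference of 0.50 (SE 0.14), and leaving out p95HER2 4 ended its call. Serpine2, encoding the protease inhibitor nexin-1, was at 1065 ± 75.1 and 1223 ± 89.2 CPM. Chpf, which takes part in chondroitin synthesis, rose by 0.25 on the log2 scale. The lowest and highest of the 8 p95HER2 tumours for Fn1 were 779 and 1308 CPM, against 502 and 1033 CPM in EV tumours, so the groups overlapped.

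Other rises in the second stretch were those of Ngef, an exchange factor gene (0.63, SE 0.15), the glycosyltransferase gene B3gnt7 (0.62, SE 0.10), the anion exchanger gene Slc4a3 (0.45, SE 0.10) and the transcription factor gene Pax3 (0.42, SE 0.10). B3gnt7 ran from 4.94 to 7.82 CPM in EV tumours and from 7.08 to 11.7 CPM in p95HER2 tumours. For B3gnt7, Slc4a3 and Pax3, 7 of 8 p95HER2 tumours were above all EV tumours. Wdfy1, Pnkd, Glb1l, the exoribonuclease gene Dis3l2, the autophagy gene Atg16l1 and the ubiquitin ligase gene Rnf25 rose by 0.17 to 0.31. Leaving out a single tumour ended the call of Atg16l1 in 13 cases, of Rnf25 in 12, of Glb1l in 5 and of Dis3l2 in 4.

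The 3 members of the second stretch that fell are genes of blood cells. Slc11a1, a metal transporter of macrophage phagosomes, ran from 6.32 over 10.46 to 21.2 CPM in EV tumours and from 4.12 over 7.07 to 9.57 CPM in p95HER2 tumours. Its difference was -0.77 (SE 0.21). Inpp5d, encoding the phosphatase SHIP-1, was at 21.8 ± 6.01 and 13.4 ± 2.67 CPM. Dock10, an exchange factor gene expressed in lymphocytes, had a difference of -0.59 (SE 0.19), and any of 12 tumours ended its call. The muscle gene Des, encoding desmin, was at -0.71 (SE 0.40) and not called, with EV tumours from 16.0 to 290 CPM and p95HER2 tumours from 45.9 to 166 CPM.

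Marker genes of several immune cell types were lower too, but not those of neutrophils. Of 20 macrophage markers 11 were called lower and 1 higher, and their summed level ran from 941 to 1899 CPM in EV tumours and from 701 to 1282 CPM in p95HER2 tumours. Of 18 T cell markers 5 were called lower, with sums from 55.6 to 159 CPM and from 26.9 to 92.3 CPM. Of 13 cytotoxic T and NK cell markers 12 were tested and 4 called lower (18.5 to 88.3 CPM in EV tumours and 10.8 to 34.6 CPM in p95HER2 tumours). Of 9 B cell markers 4 were tested and 2 called lower (4.28 to 11.7 and 1.29 to 8.66 CPM). Of 9 neutrophil markers 6 were tested, with 1 called higher, 1 lower and a median difference of 0.83 over those tested. The sums of all 9 ran from 15.1 to 27.1 CPM in EV tumours and from 19.3 to 34.5 CPM in p95HER2 tumours. No marker of these lists was at 0 in every tumour. Skeletal muscle markers, none of 14 called, summed to 139 to 7761 CPM in EV tumours and 424 to 3923 CPM in p95HER2 tumours. These sums had medians of 4809 and 1920 CPM, and the median difference was -1.07. Of 10 adipocyte markers 9 were tested and 6 called lower, with a median difference of -1.79. Of 14 fibroblast markers 1 was called lower (median -0.32), and of 14 endothelial markers none was called (-0.17). Of 6 red cell markers 5 were tested and 1 called higher (0.77). What part these cells had in the difference of each member was not tested. Covariate fits, for the immune and muscle levels only, are given with the host cell levels. Luminal epithelial markers, a check of the labelled breast cancer cells, summed to 2142 to 3423 CPM in EV tumours and 2219 to 2692 CPM in p95HER2 tumours.

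In the third stretch Lamc1, encoding a chain of most laminins, ran from 304 over a median of 336 to 371 CPM in EV tumours and from 342 over 378 to 406 CPM in p95HER2 tumours. It rose by 0.19 (SE 0.04), with 6 of 8 p95HER2 tumours above all EV tumours, so the groups overlapped. Rgs8, a regulator of G-protein signalling, passed the limit of 2 CPM only through the p95HER2 tumours, with means of 0.869 CPM in EV tumours and 3.62 CPM in p95HER2 tumours, so its difference of 2.06 (SE 0.33) is partly set by that limit. It ran from 0.356 over 0.670 to 2.13 CPM in EV tumours and from 1.49 over 3.20 to 6.78 CPM in p95HER2 tumours. The groups overlapped, with 7 of 8 p95HER2 tumours above all EV tumours. Genes for exchange factors of the small GTPase Ral rose as well: Rgl1 by 0.44 (SE 0.10) and Ralgps2 by 0.38 (SE 0.09). Angptl1 lies within Ralgps2 on the opposite strand, so its counts, at a difference of -0.43 (SE 0.40), are uncertain.

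Other rises in the third stretch were smaller. Soat1, which esterifies cholesterol, rose by 0.21, the syntaxin gene Stx6 by 0.14, the xylose kinase gene Fam20b by 0.13 and 1700025G04Rik by 0.24. Leaving out a single tumour ended the call of Stx6 in 7 cases, of Fam20b in 5 and of Soat1 in 2. Glul, encoding glutamine synthetase, was the member that fell, from 71.7 ± 8.94 to 56.4 ± 5.93 CPM (difference -0.35, SE 0.07). Dhx9, an abundant RNA helicase gene, had a median of 299 CPM in EV tumours and 308 CPM in p95HER2 tumours.

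**Figure D5:**
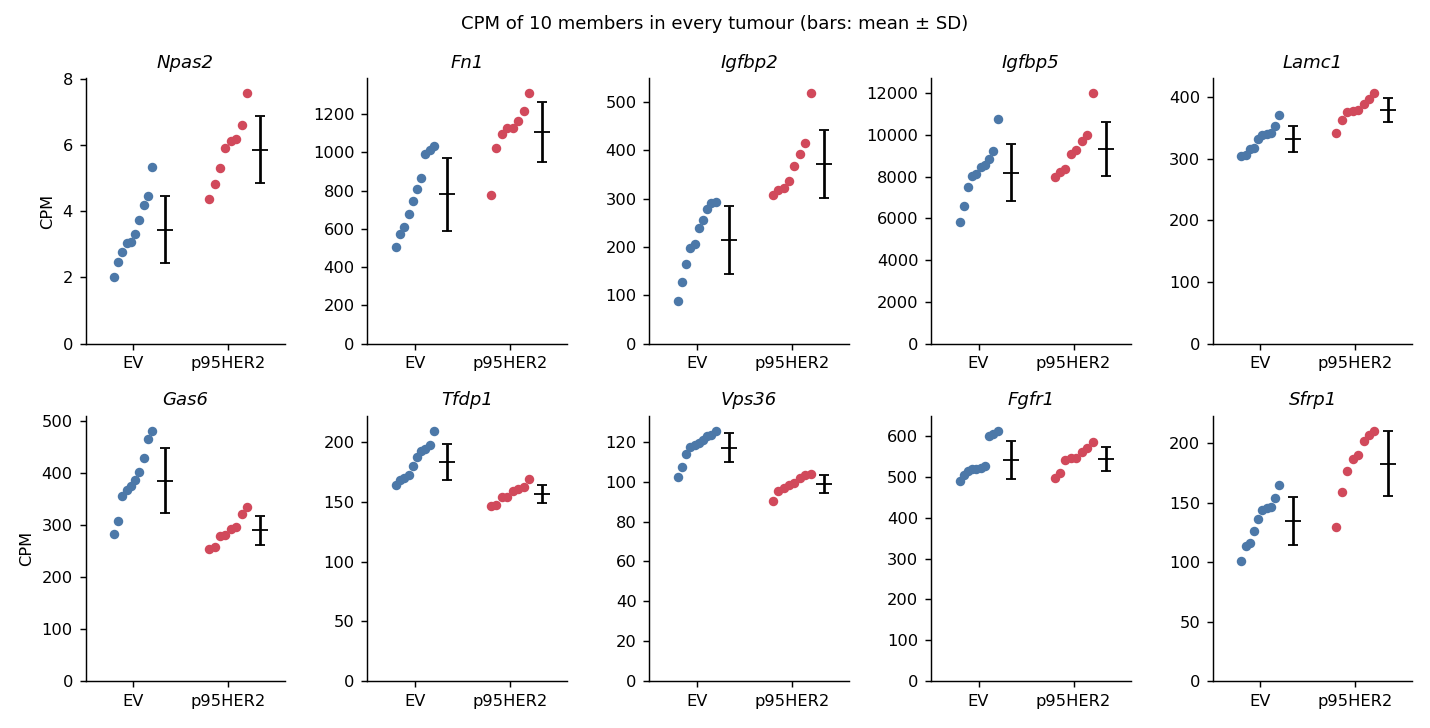
CPM (vertical axes, from 0) of 10 members in the 10 EV and 8 p95HER2 tumours, 1 point per tumour, with mean ± SD beside them. In Igfbp2 there is no overlap between groups, while Igfbp5 and Fgfr1, the most abundant of the 10 on each chromosome, overlap.

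On chromosome 8 the shift was made of many small negative differences, most of them not called. Of 30 members that are orthologues of human 13q33-q34 genes, 24 had a negative difference and 7 fell, with a median of -0.098. Over the whole stretch 97 of 119 members were negative and 16 fell, also with a median of -0.098. Of all genes with at least 2 CPM 50.8% were negative and 4.69% were called lower. Gas6, the ligand of the receptor kinases Axl, Tyro3 and Mertk, ran from 283 over 380 to 481 CPM in EV tumours and from 253 over 287 to 334 CPM in p95HER2 tumours. Its difference of -0.41 (SE 0.09) was the largest among the 16 members that fell, and 4 of 8 p95HER2 tumours lay below all EV tumours. Tfdp1, the dimer partner of E2F factors, fell from 184 ± 14.95 to 157 ± 7.71 CPM and Rasa3, which switches off Ras and Rap proteins, from 45.4 ± 5.63 to 36.8 ± 2.06 CPM.

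Pcid2, a gene of mRNA export, fell from 37.6 ± 1.62 to 32.9 ± 1.61 CPM. For Tfdp1 and Pcid2, 7 of 8 p95HER2 tumours lay below all EV tumours. The flippase gene Atp11a fell by 0.25, the gene of a mitochondrial tRNA synthetase, Cars2, by 0.23 and Dcun1d2, a gene of cullin neddylation, by 0.23 on the log2 scale. Single tumours left out ended the call of Cars2 in 13 cases and that of Dcun1d2 in 14. Lamp1, an abundant lysosomal membrane protein gene, was at 554 ± 28.8 and 544 ± 13.6 CPM and was not called.

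In the whole chromosome 8 stretch 81.5% of members were negative and 13.4% fell, against 50.8% and 4.69% of all genes. Its median was -0.098. Of 32 members that are orthologues of human 8p11-p12 genes, 25 had a negative difference, 3 fell and 1 rose, with a median of -0.084. Those that fell were Gins4, a subunit gene of the replicative helicase (-0.21, SE 0.05), the mitochondrial channel gene Vdac3 (-0.14, SE 0.04) and Eif4ebp1, encoding the translation repressor 4E-BP1 (-0.25, SE 0.07). For Vdac3 and for Eif4ebp1, 7 such cases ended the call. Fgfr1, the best-known receptor gene of the segment, ran from 492 over 522 to 614 CPM in EV tumours and from 498 over 548 to 585 CPM in p95HER2 tumours, a difference of 0.01 (SE 0.05). The p95HER2 range lay within the EV range.

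Sfrp1, encoding a secreted antagonist of Wnt signalling, rose against the stretch, from 135 ± 20.1 to 183 ± 27.4 CPM (difference 0.44, SE 0.10). Plat, encoding tissue plasminogen activator, was at 0.46 (SE 0.17) and was not called. Ank1, encoding an ankyrin of red cells and muscle, and Myom2, encoding a muscle myomesin, had the most negative values of the stretch, -0.92 (SE 0.46) and -0.98 (SE 0.48), without a call. Myom2 ran from 1.12 to 56.8 CPM in EV tumours and from 4.18 to 25.9 CPM in p95HER2 tumours. Adprhl1, a heart and muscle gene, was at -0.56 (SE 0.39) and Tnfsf13b, encoding the B cell factor BAFF, at -0.50 (SE 0.25), both without a call.

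Other members of the stretch fell as well. Vps36, a subunit gene of the endosomal sorting complex ESCRT-II, ran from 102 over 119 to 126 CPM in EV tumours and from 90.1 over 98.7 to 104 CPM in p95HER2 tumours. Its difference was -0.25 (SE 0.04), and 6 of 8 p95HER2 tumours were below all EV tumours. Ckap2, a spindle protein gene, fell from 81.0 ± 5.55 to 64.6 ± 6.94 CPM, Mcph1, a gene of the DNA damage response, from 22.9 ± 2.38 to 18.7 ± 1.61 CPM and Fbxo25, a ubiquitin ligase subunit gene, from 16.9 ± 1.40 to 13.9 ± 0.650 CPM. Cln8 and the lipid synthesis gene Gpat4 fell by 0.23 and 0.18 on the log2 scale.

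Function lists were split by chromosome, and some differed in sign between the chromosomes while others did not. The stretches were selected on these differences, so such a split is what their choice favours for members of any function. Of all members, 39 of 50, 73 of 102 and 36 of 48 were positive in the chromosome 1 stretches, and 5, 14 and 9 rose. On chromosome 8, 97 of 119 were negative and 16 fell. Nothing about a function is read from the signs. Of 18 DNA replication, repair and cell division members, all 10 on chromosome 8 were negative and 4 of them fell (Ckap2, Mcph1, Tfdp1, Gins4). The 8 on chromosome 1 gave 6 positive and 2 negative differences and no call. Of 17 ubiquitin and protein quality control members, all 5 on chromosome 8 were negative and 3 fell (Vps36, Fbxo25, Dcun1d2). All 12 on chromosome 1, which include Uggt1 and Edem3, were positive and 1 rose (Rnf25). Translation and RNA processing members had medians of 0.068, 0.062 and 0.10 on chromosome 1 and -0.101 on chromosome 8. Matrix and adhesion members had 14 of 23 positive, 8 that rose and 1 that fell, with 7 of the 8 on chromosome 1 and Sfrp1 on chromosome 8. Of 25 receptor and kinase signalling members, 3 rose and 4 fell. Of 15 immune members 10 were negative and 2 fell, and their median was negative on both chromosomes where more than 1 member was present: -0.160 and -0.130 in the second and the third stretch and -0.026 on chromosome 8. Whether any list differed from its neighbours was not tested.

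The medians were also taken with members that track the immune or the muscle level set aside. Other host cells, such as adipocytes and fibroblasts, were not used for this. Members with a Pearson r above 0.5 to the immune or the skeletal muscle level over the 10 EV tumours were marked, a measure that did not use the p95HER2 tumours. Without them the medians were 0.087 over 39 members, 0.065 over 76, 0.085 over 37 and, on chromosome 8, -0.081 over 96. Over all genes the median without such genes was 0.011. Few members were tied to the immune level (7, 14, 6 and 15), with medians of 0.075, -0.048, 0.0020 and -0.233. Over all 1908 genes so tied the median was -0.109. Members tied to the muscle level (7, 15, 7 and 14) had 0.084, 0.075, 0.179 and -0.233, against -0.020 over all 1833 genes so tied. What part host cells had in the shifts was not tested. With the immune level as a covariate the medians were 0.076, 0.040, 0.062 and -0.109, and with the muscle level 0.078, 0.059, 0.072 and -0.103. Calls of single genes were mostly lost with the immune covariate: 1 of 5, 2 of 14 and 4 of 9 members called higher in the stretches of chromosome 1 kept their call (among them Npas2, Slc4a3, B3gnt7, Lamc1, Rgs8 and Ralgps2), and 0 of 16 called lower on chromosome 8. Over all genes with at least 2 CPM, 199 were called higher and 65 lower in place of 884 and 611. The calls of Fn1, Igfbp2, Hs6st1, Gas6, Tfdp1, Vps36 and Sfrp1 were among those lost. With all libraries thinned to the smallest total the medians were 0.085, 0.059, 0.086 and -0.097.

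Mouse Erbb2, the gene of HER2, was taken as a check of the labels. It ran from 60.4 to 74.9 CPM in EV tumours and from 122 to 231 CPM in p95HER2 tumours, a difference of 1.22 (SE 0.10) with no overlap. Counts per gene cannot separate any reads of the transgene from those of the mouse's own gene, here and where tumours are ranked by Erbb2. Counts are uncertain for the run of near-identical genes around Sp110, Sp140 and Sp100 in the second stretch, which also holds Gm7609, Gm7592 and Gm15433.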

How the data were processed

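RNA of 18 tumours was sequenced from directional mRNA libraries, per the labels' protocols. The deposited values are raw counts for each Ensembl gene, with a column for every tumour. STAR 2.5, HTSeq 0.6.1 and build mm10 are named in the submitters' processing notes, and the strand setting and annotation release were not stated. Of 54532 genes, 54495 were placed with GENCODE M21 (GRCm38, the assembly of mm10), 1-based. Members were chosen by mean TMM-scaled CPM, and members, lists and naming rules were chosen with earlier results of these data known.

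Genes were kept by filterByExpr (minimum count 10, minimum total 15), scaled by TMM and tested with a robust quasi-likelihood F-test in edgeR 4.0.16 (R 4.3.3), p95HER2 against EV, with Benjamini-Hochberg adjustment over 17123 genes, of which 10.2% were called. The script was tested on simulated data. Standard errors are the log2 difference over the root of F. Named members are the 4 with the largest difference with and the 2 against each stretch, the 2 most abundant, and up to 3 of each function list by smallest p; other called members were named after their values were seen. Alternatives were other scaling, filters, DESeq2 1.42.0, limma 3.58.1 voom with quality weights, immune or muscle covariates, and each tumour left out. Thinned libraries and members tied to neither the immune nor the muscle level were added after seeing the data. The labels do not say that tumours came from separate mice, so p-values reflect only the spread of these samples, which may be technical. Numbers of tumours follow accession order. Sequences are from RefSeq. Some members that the naming rule selects are not reported here.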

Additional observations from a re-analysis of the deposited data

Results flagged for a closer look

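Among 100 sets of values checked (the level of each stretch and the CPM of each named member and Erbb2, in each group), 2 had a tumour far from the others, fewer than the 1 in 20 that chance gives. Tnfsf13b, on chromosome 8, was at 9.30 CPM in EV 7, where the EV median was 4.23 CPM. Dis3l2, in the second stretch of chromosome 1, was at 31.4 CPM in EV 1, where the EV median was 37.0 CPM. Neither a stretch level nor Erbb2 had such a tumour.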

How the results depend on the processing

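In every alternative run the medians kept their direction: with 1 tumour left out they ranged from 0.080 to 0.098, from 0.053 to 0.075 and from 0.071 to 0.124 in the stretches of chromosome 1 and from -0.108 to -0.080 on chromosome 8. The third stretch moved beyond its within-group SD with limma voom (0.114), as a mean over members (0.123) and without EV 1 (0.124). Differences of group means of the level per tumour (0.085, 0.070, 0.085 and -0.092) stayed within that SD under other pseudocounts and library totals. The largest move of the median of all genes under another scaling was -0.0062, with library totals only.

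Counts of calls moved more. With 1 tumour left out, members called higher ranged from 4 to 9, 10 to 21 and 6 to 13 on chromosome 1 and stayed at 1 on chromosome 8. Members called lower ranged from 0 to 2, 2 to 4, 1 to 2 and 12 to 19. Over all genes 792 to 1201 were called higher and 489 to 1130 lower, the latter least without p95HER2 2, and Erbb2 ranged from 1.13 to 1.27. In the first stretch DESeq2 called 10 members higher and 2 lower and voom 12 higher, and none was called lower with no filter or the muscle covariate. DESeq2 also called 2 lower in the third stretch and 2 higher on chromosome 8. With the immune covariate 1, 5, 5 and 0 members were called higher and 0, 0, 0 and 1 lower, and over all genes 247 and 84. Causes were not tested. Among values of named members under other settings, 366 kept their side of the threshold, 33 lost and 6 gained a call, and with tumours left out 753, 49 and 8 did. No paired analysis was possible because the labels give no replicate numbers. Shifts of this size are not far from the standard error of a single gene, so most members cannot be called alone at this depth and number of tumours.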

Other observations

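Tumour p95HER2 8, whose 4 stretch levels were the nearest to EV among p95HER2 tumours, had the highest Erbb2 level of all tumours, 231 CPM, and p95HER2 6, with the lowest chromosome 8 level, the next highest, 186 CPM. These values are a description of 8 tumours, and no relation was tested.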
